A study of Arabidopsis thaliana with 60 samples.

Results

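AT2G21640, also known as UPOX (upregulated by oxidative stress), encodes a small mitochondrial protein of unknown function in Arabidopsis thaliana. It was followed through the probe set 263515_at, the only probe set whose annotation names this gene alone, and is 1 of the 13286 genes that could be named from single-gene probe sets on the Affymetrix ATH1 array. The gene was picked for its signal on the 60 arrays and for its differences between compound and mock, so these values are described without a test. When mitochondrial respiration is disturbed, plant cells send a retrograde signal to the nucleus in which the membrane-bound transcription factor ANAC017 takes part, and a set of nuclear genes for mitochondrial proteins and detoxifying enzymes is transcribed. AT2G21640 belongs to that set, together with the alternative oxidase AOX1A, and it is also counted among the transcripts raised by many reactive oxygen species, which is why it serves as a marker of mitochondrial and oxidative stress.

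The arrays carried RNA of whole Col-0 seedlings, 7 days old, that had been given a compound or a mock treatment for 3 h or 12 h. Every group held 2 arrays, and the labels do not say whether these came from separate cultures, so errors and p-values measure the spread between arrays, which may be technical. Series F1 (3 h) held 18 treated groups: cycloheximide (CHX, an inhibitor of cytosolic translation), TIBA and NPA (inhibitors of auxin transport), MG132 (a proteasome inhibitor), AgNO3, AVG, salicylic acid, ibuprofen, daminozide, PCIB, 2,4,6T, prohexadione, propiconazole, uniconazole, paclobutrazol, Brz220 and Brz91, each at 10 µM, and PNO8 at 1 µM. Series F2 (12 h) held 7: PNO8 at 1 µM, and prohexadione, propiconazole, uniconazole, paclobutrazol, Brz220 and Brz91 at 10 µM. Series G (3 h) held PNO8 at 10 µM and Brz220 at 3 µM. Each series had its own mock, and every treated group was set against the mock of its series, so the comparisons within a series share the same 2 mock arrays. Levels are given as scaled intensity, the deposited MAS5 value after all arrays were brought to 1 trimmed mean. Differences are log2(scaled intensity + 125.6), treated minus mock, ± the standard error (SE) of the limma fit over all probe sets, with n = 2 arrays per group. This SE is moderated, so the spread of a probe set is drawn toward that of the others. For AT2G21640 it was 0.44, below the gene's own spread within groups of 0.49, which would be the SE without moderation.

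Root and shoot transcripts were present, as the label of whole seedlings requires: the 2 measured shoot markers and 7 measured root markers had median percentiles between 54.0 and 99.8 within the arrays. RNA quality was read from actin and GAPDH. The 3′ signal of actin exceeded its 5′ signal by a factor of 1.24 to 10.3 on the 60 arrays. For GAPDH the 3′ to 5′ ratio was 0.40 to 1.49. The 2 arrays of each group had a Pearson's r of 0.959 to 0.981 across probe sets.

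AT2G21640 gave a dim signal in mock-treated seedlings. Its signal was 224 and 467 in the F1 mock, 398 and 326 in the F2 mock, and 92.9 and 234 in the G mock, where the 40th percentile of an array lay at 324 in the median array. In the 6 mock arrays the probe set stood between the percentiles 14.5 and 48.2 of all probe sets. The G mock was the lowest of all 30 groups, at 8.13 on the log2 scale, against 8.83 for the F1 mock and 8.93 for the F2 mock.

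4 groups stood apart from the rest. The 8 arrays treated with CHX, TIBA or MG132, or with PNO8 at 10 µM, all for 3 h, lay between 903 and 2464, whereas the other 52 arrays lay between 54.3 and 756 with a median of 383, so the arrays of these 4 groups did not overlap with any other array of the study. In these 8 arrays the probe set reached percentiles between 65.1 and 84.7. In whole seedlings a change in the cells that carry a transcript and a change of its amount per cell cannot be told apart.

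With PNO8 at 10 µM the signal was 1634 and 1980.3, against 92.9 and 234 in the G mock. The difference was 2.78 ± 0.44, which was the 84th highest of 17312 probe sets. Within replicate 1 the difference was 3.01 and within replicate 2 it was 2.55. Both treated arrays lay above both mock arrays, as did those of 26.8% of all probe sets in this comparison. When the mocks of F1 and G together served as the control, the difference was 2.43.

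With CHX the signal was 2411 and 1587, against 224 and 467 in the F1 mock. The difference was 2.20 ± 0.44 (2.86 within replicate 1 and 1.53 within replicate 2). CHX moved a large part of the transcriptome, and AT2G21640 ranked 1005th of 17312. Both treated arrays lay above both mock arrays, as they did for 25.4% of probe sets.

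With TIBA the signal was 1219.6 and 2464, against 224 and 467 in the F1 mock. The difference was 2.04 ± 0.44 and was alike in both replicates, at 1.94 and 2.13, and it ranked 179th. Non-overlap in this direction was found for 21.4% of probe sets. NPA, the other inhibitor of auxin transport, gave 277 and 461 at the same dose and time, a difference of 0.10 ± 0.44 from the same mock.

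With MG132 the signal was 1102 and 903, against 224 and 467 in the F1 mock, a difference of 1.30 ± 0.44 (1.81 within replicate 1 and 0.80 within replicate 2). This was the smallest of the 4, and it ranked 35th of 17312. Non-overlap in this direction was found for 18.9% of probe sets. Without replicate 1 of the F1 mock the difference was 0.92, and without replicate 2 it was 1.68.

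**Figure D1:**
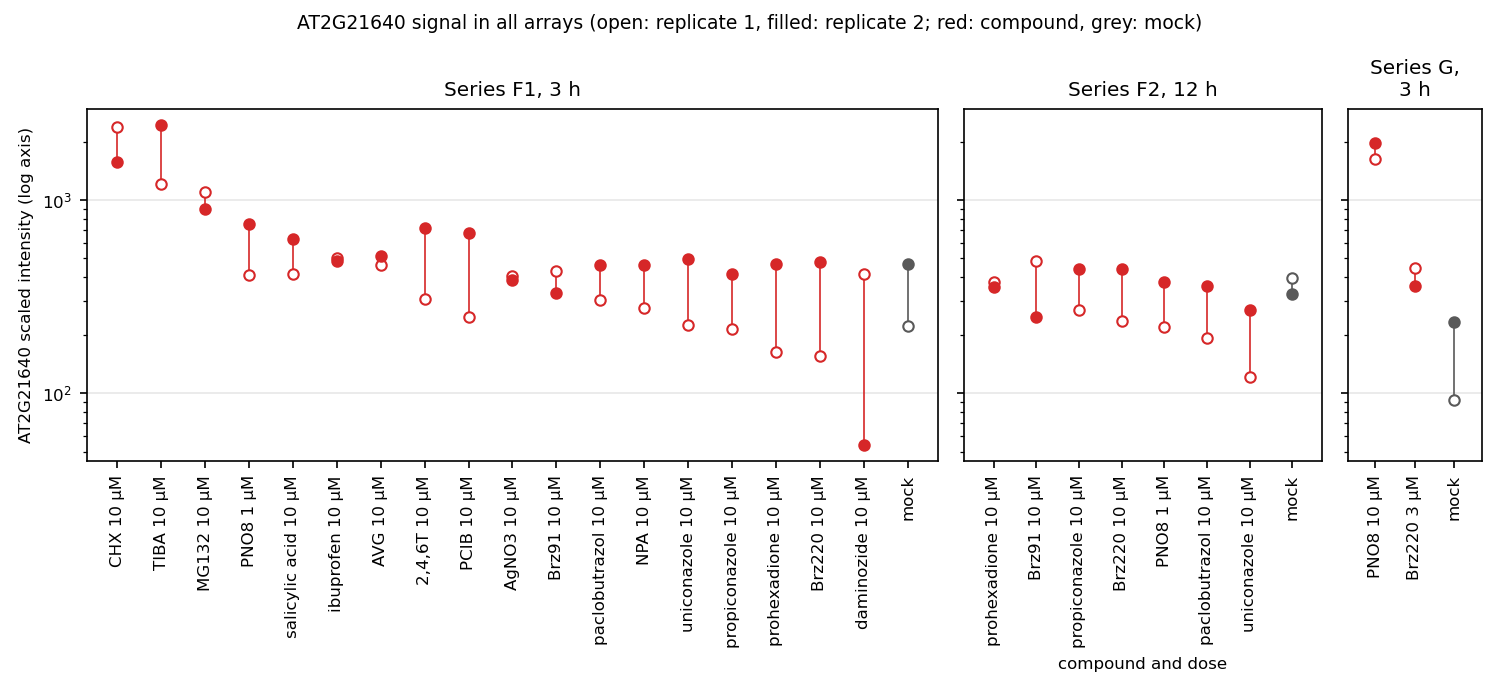
Scaled intensity of AT2G21640 (log axis) in all 60 arrays, by series, compound and dose, with each mock at the right of its series. Open circles are replicate 1, filled circles are replicate 2 and lines join the 2 arrays of a group. The arrays of CHX, TIBA, MG132 and PNO8 at 10 µM lie at 903 or above, and all others at 756 or below.

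The other 23 treated groups differed from their mocks by between -0.64 and 0.91. Among them the highest difference belonged to Brz220 at 3 µM, with 445 and 361 against 92.9 and 234 in the G mock (0.91 ± 0.44). Both arrays lay above both G mock arrays, as for 17.8% of probe sets, but within the range of the F1 mock. Its difference also ranked 35th of 17312, and it was 0.56 when both 3 h mocks served as the control. At 10 µM for 3 h, in series F1, Brz220 gave 157 and 477, a difference of -0.14 ± 0.44 from a brighter mock. Doses, series and mocks all differ between these values.

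PNO8 was given at 1 µM as well. At 3 h its signal was 409.7 and 756, against 224 and 467 in the F1 mock, a difference of 0.59 ± 0.44 that was nearly equal in both replicates (0.61 and 0.57). At 12 h it was 221 and 377, against 398 and 326 in the F2 mock, a difference of -0.22 ± 0.44. The value of 2.78 at 10 µM came from series G and another mock, so the doses are set side by side and not compared.

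Salicylic acid, which is known to raise alternative oxidase, gave 417 and 635 (0.50 ± 0.44), against 224 and 467 in the F1 mock. Ibuprofen gave 505 and 485 (0.45 ± 0.44), which lay above both arrays of the F1 mock, as for 18.5% of probe sets. The ethylene synthesis inhibitor AVG gave 460.1 and 515 (0.43 ± 0.44). In all 3 groups replicate 1 exceeded the mock array of its number by more than replicate 2 did. 2,4,6T gave 309.7 and 718 (0.41 ± 0.44), and PCIB gave 249 and 678 (0.27 ± 0.44), each with a wide gap between its arrays. AgNO3 gave 405 and 387 (0.20 ± 0.44), between the 2 arrays of the F1 mock. Each of these 6 differences was close to its SE or smaller.

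With 5 further compounds the signal was near that of the mock at 3 h. In series F1, against 224 and 467 in the mock, it was 429 and 333 with Brz91, 304 and 462 with paclobutrazol, 227 and 498 with uniconazole, 216 and 415 with propiconazole, and 164 and 467 with prohexadione. These 5 differences lay between -0.13 and 0.15. Daminozide gave 415 and 54.3, the widest gap within any group on the log2 scale. Its difference of -0.55 ± 0.44 was made of 0.63 within replicate 1 and -1.72 within replicate 2.

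At 12 h no group of series F2 lay above both mock arrays. Against 398 and 326 in the mock, the signal was 379 and 356 with prohexadione, 485 and 249 with Brz91, 269 and 441 with propiconazole, and 236 and 439 with Brz220. It was 195 and 360.5 with paclobutrazol (-0.30 ± 0.44). With uniconazole it was 122 and 269, the lowest difference of the 27, at -0.64 ± 0.44. Both uniconazole arrays lay below both mock arrays, as for 22.9% of probe sets.

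Ordered by mean level, the 30 groups began with CHX (11.03 on the log2 scale), PNO8 at 10 µM (10.91), TIBA (10.87) and MG132 (10.13), followed by PNO8 at 1 µM and 3 h (9.42). The arrays of CHX, PNO8 at 10 µM and TIBA overlapped with each other in this order. TIBA and MG132 did not overlap, nor did MG132 and the next group. From there down to the G mock, each group overlapped with its neighbour. The spread of AT2G21640 within groups, 0.49 log2 units pooled over the 30 groups, was larger than that of 98% of probe sets. Between replicates the second array was the brighter in 20 of the 30 groups.

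**Figure D2:**
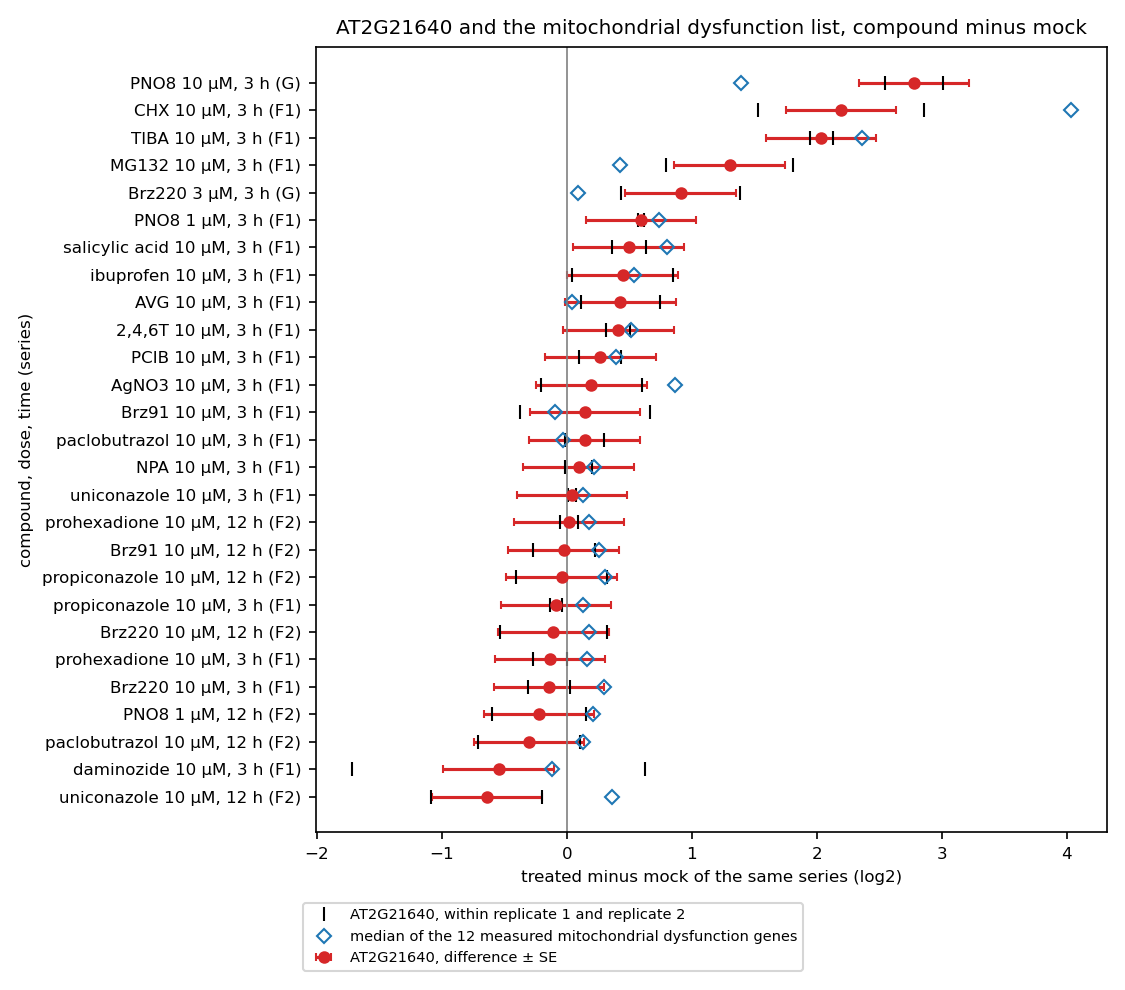
Treated minus mock of the same series (log2) for the 27 comparisons, ordered by AT2G21640. Red points are AT2G21640 with its SE, black ticks are the differences within replicate 1 and within replicate 2, and blue diamonds are the medians of the 12 measured genes of the mitochondrial dysfunction list. The list median exceeds AT2G21640 with CHX (4.04 against 2.20) and TIBA (2.36 against 2.04) and lies below it with PNO8 at 10 µM (1.40 against 2.78) and MG132 (0.43 against 1.30).

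Genes known to respond to mitochondrial dysfunction through the same regulators were taken from a list of 22, AT2G21640 left out. Of these, 12 had a probe set naming them alone, and all 12 passed the filter on dim probe sets. On the mock arrays alone 6 of them would have passed, so the other 6 entered with the help of treated arrays. A gene that passes only where it is high tends to be called there, so the counts below are descriptions. AOX1A, OM66 and ANAC013 are among the members not analysed here.

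With TIBA 9 of the 12 genes rose and 0 fell (limma, adjusted p under 0.05), where 5.75% of all probe sets were called higher and 6.12% lower. The median difference was 2.36, against -0.03 over all probe sets. AT2G41730, whose probe set may also bind related transcripts, had 11246 and 15389 with TIBA, against 370.0 and 633 in the F1 mock (4.44 ± 0.53, limma adjusted p = 3.41e-08). AT5G43450, which encodes a 2-oxoglutarate-dependent dioxygenase, had 7563 and 12015 with TIBA, against 277 and 535 in the mock (4.23 ± 0.52, 5.97e-08). For both genes the TIBA arrays lay far above the mock arrays. AT1G05060 rose further with TIBA (2.54 ± 0.21) than in any other comparison.

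With CHX 10 of the 12 rose, where 18.2% of probe sets were called higher and 33.6% lower, and the median difference was 4.04 against -0.14 over all probe sets. AT2G32020, which encodes a GNAT-family acetyltransferase, had 28920.0 and 36176 with CHX, against 309 and 563 in the mock (5.89 ± 0.50, limma adjusted p = 3.74e-13). NDB4, an alternative NADH dehydrogenase of the inner mitochondrial membrane, had 4364 and 3572 with CHX, against 92.9 and 97.7 in the mock (4.20 ± 0.41, 2.37e-11). AT5G09570, which encodes the twin-cysteine protein At12Cys-2, rose by 3.43 ± 0.21 and AT1G24095 by 2.20 ± 0.37. NDB4 and AT1G24095 were called with CHX and in none of the other 26 comparisons, whereas AT2G21640 was also high with TIBA, MG132 and PNO8. AT2G41380, which encodes a methyltransferase-like protein, was the 1 member that fell, with 361 and 169 with CHX against 902 and 715 in the mock (-1.29 ± 0.29, 0.000286). It rose with TIBA (1.94 ± 0.29) and with PNO8 at 10 µM (1.44 ± 0.29).

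With PNO8 at 10 µM 8 of the 12 rose and 0 fell, where 6.23% of probe sets were called higher and 5.96% lower, and the median difference was 1.40 against -0.01 over all probe sets. AT5G14730 had 5237 and 5888 with PNO8, against 385 and 356 in the G mock (3.52 ± 0.23, limma adjusted p = 4.68e-15). The genes AT2G04050 (3.70 ± 0.64) and AT2G04070 (1.36 ± 0.37), which encode MATE-type efflux carriers and are alike enough that their probe sets may share signal, rose as well. NDB4 was at 40.1 and 31.6 with PNO8, against 33.4 and 32.9 in the mock. NDB4 was dim on all 4 arrays of the comparison in which AT2G21640 had its largest difference. AT2G03130 was called in none of the 27 comparisons.

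With MG132 1 of the 12 genes rose and 0 fell. The gene was AT1G05060, with 1022 and 1274 with MG132 against 645 and 490.4 in the mock (0.88 ± 0.21, limma adjusted p = 0.0281). The share of probe sets called higher was 0.381% and that called lower 0.624%, and the median of the list was 0.43 against -0.03 over all. The difference was positive for 11 of the 12 genes, and 3 had an unadjusted p under 0.05. The call of AT1G05060 was lost without any 1 of the 4 arrays of the comparison. With series and replicate number as a block 2 genes rose, where 0.624% of probe sets were called higher, the second being AT2G41730 (1.64, adjusted p = 0.00965). The difference of 1.30 for AT2G21640 was larger than that of 11 of the 12 list genes here, which ran from -0.11 to 1.64. AT2G21640 was picked for its differences from the mock, so this order is a description.

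**Figure D3:**
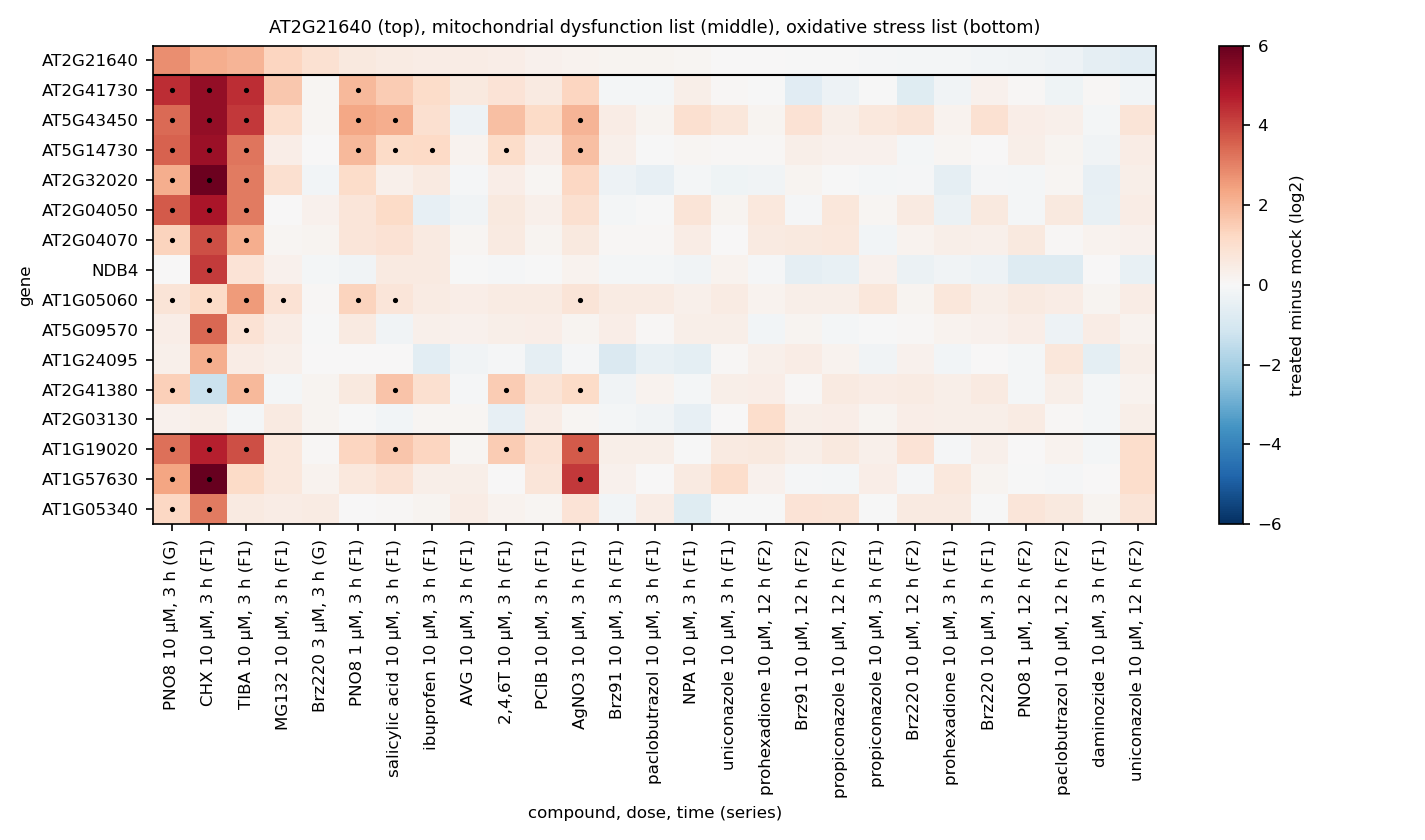
Treated minus mock (log2, colour) in the 27 comparisons, ordered from left to right by AT2G21640, which is the top row. The middle rows are the 12 measured genes of the mitochondrial dysfunction list and the bottom rows the 3 measured oxidative stress genes, and black dots mark limma adjusted p under 0.05 (AT2G21640 was not tested). Of the 12 genes, 8 were called higher with PNO8 at 10 µM (6.23% of all probe sets), 10 with CHX (18.2%), 9 with TIBA (5.75%) and 1 with MG132 (0.381%). Outside these groups, 4 were called higher each with AgNO3 (10.8%), salicylic acid (4.68%) and PNO8 at 1 µM and 3 h (1.04%). With 2,4,6T it was 2 (0.797%) and with ibuprofen 1 (0.635%).

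Members of the list were also called higher in 5 comparisons outside these 4 groups, in which AT2G21640 differed from its mock by 0.20 to 0.59. AgNO3 raised 4 of the 12, where 10.8% of probe sets were called higher, among them AT5G43450 with 1617 and 2488 against 277 and 535 in the mock (2.05 ± 0.52, limma adjusted p = 0.00253). AT2G21640 was at 405 and 387 with AgNO3, against 224 and 467 in the mock. Salicylic acid raised 4 (background 4.68%), PNO8 at 1 µM and 3 h raised 4 (1.04%), 2,4,6T raised 2 (0.797%) and ibuprofen 1 (0.635%), which was AT5G14730 (1.20 ± 0.23). AT5G43450, called with salicylic acid, had arrays far apart there, at 894 and 5096 against 277 and 535 in the mock. The differences of AT2G21640 were 0.50 with salicylic acid, 0.59 with PNO8 at 1 µM, 0.41 with 2,4,6T and 0.45 with ibuprofen, each with an SE of 0.44. In the remaining 18 comparisons limma called 0 members in either direction, with 0 to 3 members per comparison at unadjusted p under 0.05. Over those comparisons together 0.0982% of probe sets were called higher and 0.0857% lower.

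A second list held 4 transcripts that, like AT2G21640, are known to rise under many kinds of reactive oxygen species, of which 3 were measured and 2 passed the filter on the mock arrays alone. With PNO8 at 10 µM all 3 rose. AT1G57630, which encodes a TIR-domain protein, had 595 and 1128, against 17.6 and 106 in the G mock (2.38 ± 0.43, limma adjusted p = 7.89e-05), and AT1G05340, which encodes a cysteine-rich membrane protein, had 1170.5 and 1279, against 461 and 432 (1.24 ± 0.31, 0.00484). CHX raised all 3 too, with differences from 3.12 to 5.96. With TIBA 1 rose, AT1G19020, with 11040 and 16244 against 1072 and 601 in the mock (3.86 ± 0.35, 5.26e-11), and with MG132 0 passed (0 at unadjusted p under 0.05, differences from 0.44 to 0.63). AgNO3 raised 2, AT1G19020 (3.67 ± 0.35) and AT1G57630 (4.23 ± 0.43), and salicylic acid and 2,4,6T each raised AT1G19020. The background shares are those given for these compounds above.

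Genes for detoxifying enzymes rose with many compounds. Of 9 measured genes of a list of 18, 5 of which passed the filter on the mock arrays alone, all 9 rose with PNO8 at 10 µM (6.23% of all probe sets called higher) and all 9 with TIBA (5.75%), 8 with CHX (18.2%) and 2 with MG132 (0.381%). UGT73B4 and UGT73B5, named below, were dim on all mock arrays and passed only with the help of treated arrays. The counts and p-values of this list are therefore descriptions. With PNO8 the differences were led by the glycosyltransferase gene UGT73B5, which had 6190 and 6735 against 113 and 93.1 in the G mock (4.85 ± 0.30, limma adjusted p = 2.34e-15), by AT5G16980 (4.13 ± 0.31), which encodes a zinc-binding dehydrogenase, by the glutathione transferase gene GSTU25 (3.97 ± 0.44) and by UGT73B4 (3.61 ± 0.42). With TIBA they were led by GSTU25 (4.75 ± 0.44), UGT73B4 (4.08 ± 0.42), UGT73B5 (3.81 ± 0.30) and AT4G01870 (3.55 ± 0.45), which encodes a TolB-related protein. With CHX they were led by AT4G01870 (2.89 ± 0.45) and by AT4G13180 (2.59 ± 0.21), which encodes a short-chain dehydrogenase. The 2 genes raised by MG132 were GSTU25, with 3587 and 5645 against 551 and 418 in the F1 mock (2.93 ± 0.44, 5.53e-05), and GSTU22 (1.82 ± 0.32, 0.000844). Detoxification genes also rose where AT2G21640 stayed within 0.60 of its mock: 7 of 9 each with AgNO3 (10.8% of all probe sets called higher), PNO8 at 1 µM and 3 h (1.04%) and salicylic acid (4.68%), 6 with 2,4,6T (0.797%), 3 with ibuprofen (0.635%) and 2 with PCIB (0.11%). GSTU25 had 3505 and 13476 with salicylic acid, again with replicate 2 far above replicate 1.

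AT5G51440, which encodes a small heat shock protein of mitochondria, was the 1 measured gene of 21 for mitochondrial chaperones and import, and it passed the filter with the help of treated arrays, so its calls are a description. It was called higher in 5 comparisons. The shares of all probe sets called higher were 0.381% with MG132, 18.2% with CHX and 5.75% with TIBA. They were 6.23% with PNO8 at 10 µM and 10.8% with AgNO3. With MG132 AT5G51440 had 1827 and 2447, against 252 and 279.9 in the mock (2.52 ± 0.40, limma adjusted p = 0.000123), and with CHX it rose by 2.28 ± 0.40 (5.64e-06). With TIBA the difference was 3.42 ± 0.40, with PNO8 at 10 µM it was 1.63 ± 0.40 and with AgNO3 it was 1.15 ± 0.40 (adjusted p = 0.0281). These last 3 values were chosen for print after they had been seen.

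Of 5 measured alternative NADH dehydrogenases, 3 passed the filter on the mock arrays alone, so the calls are a description. NDB2 was called higher in 6 comparisons and NDB4 with CHX. The shares of all probe sets called higher were 5.75% with TIBA, 18.2% with CHX and 6.23% with PNO8 at 10 µM. They were 10.8% with AgNO3, 4.68% with salicylic acid and 1.04% with PNO8 at 1 µM and 3 h. The differences of NDB2, a gene singled out after its values were seen, were 2.53 with TIBA, 1.41 with CHX and 1.57 with PNO8 at 10 µM, each with an SE of 0.36. They were 2.00 with AgNO3, 1.60 with salicylic acid and 1.30 with PNO8 at 1 µM and 3 h, with the same SE, where AT2G21640 was not among the high groups. The 2 salicylic acid arrays of NDB2 lay far apart, at 2160 and 8417 against 891 and 1954 in the F1 mock. An SE pooled over all groups does not show this gap. NDB1 fell with CHX (-0.57 ± 0.17, limma adjusted p = 0.00425), where 33.6% of all probe sets were called lower. With MG132 0 of the 5 were called (0 at unadjusted p under 0.05), and NDB2 had 1038 and 1078 against 891 and 1954 in the mock. Of 16 measured genes for subunits of the respiratory complexes and mitochondrial processing, 11 fell with CHX, where 33.6% of all probe sets were called lower, and 1 rose, where 18.2% were called higher. The gene that rose was the cytochrome c gene CYTC-2 (1.15 ± 0.25). AT5G25450, which encodes a subunit of complex III, was the 1 gene that rose with TIBA (5.75% of probe sets; 1.01 ± 0.30, limma adjusted p = 0.0198) and the 1 that rose with AgNO3 (10.8%; 0.88 ± 0.30, 0.0275). With MG132 and PNO8 at 10 µM limma called 0 (2 and 1 at unadjusted p under 0.05).

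The genes whose signal was most like that of AT2G21640 were found by Pearson's r over the 60 arrays, after the mean of each series and replicate number had been taken off. The closest of 9569 named probe sets was AT2G41730 (r = 0.84), followed by AT1G76600 (0.78), AT5G43450 (0.78), AT2G47890 (0.78), which encodes a B-box zinc finger protein, and AT4G24160 (0.77), which encodes a lysophosphatidic acid acyltransferase. The next were the lactate dehydrogenase gene AT4G17260 (0.77), AT5G14730 (0.77), AT2G32020 (0.76), AT2G04050 (0.76) and AT5G54860 (0.75), which encodes a folate-biopterin transporter family protein. 5 of these 10 belong to the mitochondrial dysfunction list, which held 12 of the 9569 named probe sets. The median r was 0.67 for the 12 list genes and -0.04 for all named probe sets. Over the 52 arrays outside the 4 high groups these medians were 0.29 and 0.02. On the mock arrays alone 6 of the 12 would have passed the filter. AT2G21640 was picked for the same signal, so the medians are a description. The most opposite were AT3G05920 (-0.77), which encodes a heavy-metal-associated domain protein, AT3G01720 (-0.76), which encodes a peptidyl serine galactosyltransferase, and AT3G08930 (-0.73).

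The likeness rested in large part on the 4 high groups. The arrays of a set share scaling, and the arrays fall into a high and a low cloud, so r is a description of these arrays. Over the 52 arrays outside the 4 groups r of the 10 genes ran from 0.11 for AT4G17260 to 0.47 for AT4G24160. For AT2G41730 it was 0.41 and for AT5G43450 0.40, where the median of all named probe sets was 0.02. None of the 10 genes remained among the 10 most alike. Without the 2 CHX arrays 6 of the 10 remained. AT1G76600, the second in likeness, had 770.4 and 987 with MG132, against 445 and 686 in the mock (0.55 ± 0.35, limma adjusted p = 0.628). With TIBA it had 7240 and 8702, against the same mock (3.57 ± 0.35, 2.25e-10), and with PNO8 at 10 µM 10813 and 12300, against 579 and 609 in the G mock (4.02 ± 0.35, 9.54e-12).

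**Figure D4:**
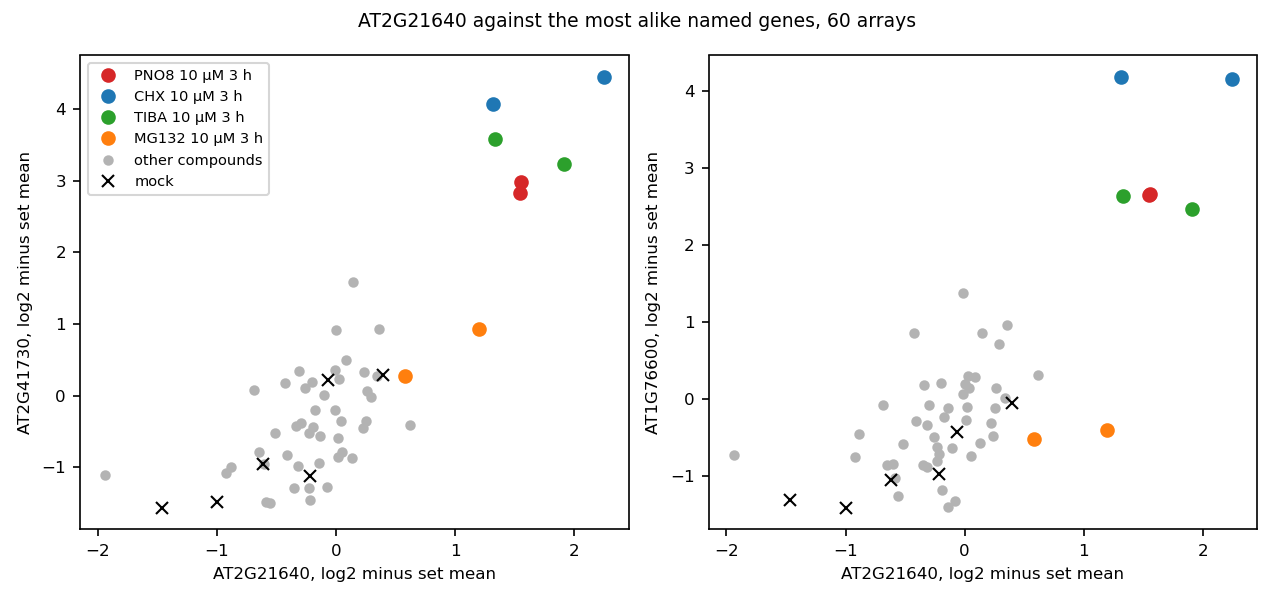
Each point is 1 of the 60 arrays: AT2G21640 (x axis) against AT2G41730 (left) and AT1G76600 (right), as log2 values minus the mean of the arrays of the same series and replicate number. Colours mark the 4 groups high in AT2G21640, grey the other compounds and crosses the mocks. Over all 60 arrays r is 0.84 and 0.78, and over the 52 arrays outside the 4 groups it is 0.41 and 0.36.

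Some measures of tissue and RNA differed from the mock in part of the high groups. The summed signal of the 7 root markers was 32006 to 34497 with PNO8 at 10 µM, against 51994 to 53322 in the G mock. It was 30020.2 to 46722 with TIBA, 46210 to 53026 with CHX and 48464 to 48729 with MG132, against 50547 to 57280.0 in the F1 mock. The 2 shoot markers summed to 18512 to 19739 with PNO8 at 10 µM, against 21183 to 23984 in the G mock. With CHX (21554 to 30863), TIBA (14948 to 24373) and MG132 (15921 to 23101) their sum overlapped with the F1 mock (17085 to 24575). The actin 3′ to 5′ ratio was 1.24 to 1.54 with PNO8 at 10 µM, against 2.84 to 5.21 in the G mock, and 2.25 to 2.54 with CHX, against 2.69 to 8.57 in the F1 mock. With TIBA (2.36 to 4.98) and MG132 (2.81 to 6.74) it overlapped with the F1 mock. The GAPDH 3′ to 5′ ratio was 0.85 to 0.88 with PNO8 at 10 µM, against 1.07 to 1.49 in the G mock. With CHX (0.75 to 0.81), TIBA (0.43 to 0.50) and MG132 (0.41 to 0.55) the GAPDH ratio overlapped with the F1 mock (0.42 to 0.92). The part of these measures in the signal of AT2G21640 was not tested.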

How the data were processed

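The deposited table held 22810 probe sets on 60 arrays as linear intensity; these intensity values come from MAS5 as run by the authors (per the submitters' processing notes), with settings not given in the sources used here. In these files the 2% trimmed mean of the deposited values was the same for all arrays of 1 series and 1 replicate number and differed between these 6 sets, from 1020 to 1523 (per the values). Each array was therefore multiplied to a trimmed mean of 1313.5. Values became log2(value + 125.6), where the pseudocount is the median of the arrays' 20th percentiles, so differences of dim probe sets are understated. After 64 control probe sets were left out, 17312 above the 40th percentile of their array on at least 2 arrays were kept.

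Group means were fitted to all arrays together with limma 3.58.1 (R 4.3.3; 30 residual degrees of freedom, intensity trend), with Benjamini-Hochberg adjustment within each comparison and a threshold of 0.05. Probe sets were named from the platform annotation, which is old (13513 with 1 gene, 13436 of them matched to the TAIR10.1 gene table, 503 with several and 8730 not listed), by gene ID; the brightest was used where a gene had several. The lists were for mitochondrial dysfunction, oxidative stress, alternative respiration, detoxification, mitochondrial chaperones and import, the respiratory chain, and retrograde regulators (0 of 11 measured, so without a result). The gene and the lists were chosen with earlier results of these data known.

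Named genes were the 10 most and 3 least alike AT2G21640 by Pearson's r, the measured members of the first 2 lists, and up to 4 called members of the other lists in each comparison where AT2G21640 differed by 1 or more. Data were simulated for PNO8 at 10 µM with 17312 probe sets and independent normal noise, 200 of them raised in this group alone. Of these changes 65% of those by 1 log2 unit and 98% of those by 2 units were called, and 12 of 175 calls were false. The real comparison had 2111 calls, higher and lower, so these rates do not carry over to it. The number of arrays limits the precision. Alternatives were deposited scaling, quantile normalization, no pseudocount, a block for series and replicate number, both 3 h mocks as control, no filter, the arrays of 1 series alone, and each array left out. The deviations of same-numbered arrays from their group means correlated with a median r of 0.14 in F1, 0.17 in F2 and 0.01 in G.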

Additional observations from a re-analysis of the deposited data

Results flagged for a closer look

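For uniconazole, AT2G21640 lay below the mock at 12 h (series F2) and near the mock at 3 h (series F1). Both arrays were lower than the mock array of their number at 12 h (differences of -1.08 and -0.19) and higher at 3 h (0.01 and 0.07). The log2 difference at 12 h minus that at 3 h was -0.68. This difference was not tested, and the values at 3 h were far smaller than the spread between replicates, 0.49. With 1 array left out the difference at 3 h ranged from -0.37 to 0.454. The 2 times belong to different series with different mocks.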

How the results depend on the processing

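The differences of AT2G21640 moved by less than 1 SD between replicates (0.49) with deposited scaling, quantile normalization and both 3 h mocks as control. With the replicate block they were unchanged, since each comparison is balanced over it, with an SE of 0.40. Without a pseudocount 3 moved, to 3.61 for PNO8 at 10 µM, 1.44 for Brz220 at 3 µM and -1.11 for daminozide. With 1 array left out, the differences ranged from 2.42 to 3.14 for PNO8 at 10 µM, 1.81 to 2.58 for CHX, 1.56 to 2.51 for TIBA and 0.92 to 1.68 for MG132. They ranged from -1.34 to 0.25 for daminozide, -0.69 to 0.41 for Brz220 at 10 µM and 3 h, -0.28 to 0.82 for PCIB and -0.65 to 0.38 for prohexadione at 3 h. The sign turned with 1 array left out in 16 of the 27 comparisons, these 4 among them, and in none of the 4 high groups. The dim signal in the mocks limits all of them.

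Over the 27 comparisons together, 43 calls were higher and 1 lower for the mitochondrial dysfunction list (37 to 50 higher with 1 array left out) and 11 higher for the oxidative stress list (9 to 14). Neither sum moved by over 1.5 times under any alternative. No share of all probe sets is given for these sums or for those below. The number of all probe sets called also changed with the setting, as given below. A change in a sum can therefore not be told apart from a change in the calls over all probe sets. Of the 43 higher calls, 10 came with CHX, 9 with TIBA and 8 with PNO8 at 10 µM. In these comparisons 18.2%, 5.75% and 6.23% of all probe sets were called higher, in this order. The 1 lower call came with CHX, where 33.6% of all probe sets were called lower. The single call for MG132 became 0 with deposited scaling, 2 with the replicate block, 2 with both 3 h mocks, 0 with the arrays of the series alone and 0 without any 1 array (0 to 0). With both 3 h mocks 2 oxidative stress genes rose with TIBA, and 1 detoxification call was lower, against 0. With 1 array left out, lower detoxification calls were 0 to 1 and higher calls for alternative respiration 4 to 9, against 7. For the respiratory chain 3 higher calls became 1 with deposited scaling, 6 with quantile normalization, 6 with the replicate block, 8 with both 3 h mocks and 1 to 5 with 1 array left out, and 11 lower calls became 5 with deposited scaling. The 1 lower call for alternative respiration became 0 with deposited scaling. Probe sets called with MG132 numbered 174, but 34 with deposited scaling, 104 with the arrays of the series alone, 282 with the block and 623 with both 3 h mocks. For PNO8 at 10 µM 2111 became 808 with deposited scaling, 3611 with both mocks and 3512 with the series alone, and for TIBA 2054 became 933 with deposited scaling. The 5 mitochondrial dysfunction genes among the 10 most alike became 3 without CHX, 1 by Spearman's rho, and 0 without the 4 high groups, an alternative chosen after seeing the data. The causes were not tested.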

Other observations

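The lowest of all 60 values of AT2G21640, 54.3, was replicate 2 of daminozide, whose replicate 1 was at 415.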
